A study of Homo sapiens with 6 samples.

Results

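The chemokines that epithelial cells themselves make were followed in SW480, a human cell line grown from a colorectal adenocarcinoma, after 24 h of exposure to the mitochondrial probe MPM-1. The set was fixed by name as 6 genes, CXCL1, CXCL2, CXCL3, CXCL8, CXCL16 and CCL20, and 5 of them had a row among the 12982 genes of the deposited table. CCL20 had none, by symbol or by identifier, and has no value here. Expression was measured by RNA sequencing of total RNA with a kit for mRNA, in 3 libraries of cells given DMSO, the solvent control, and 3 libraries of cells given MPM-1. WT4 in the labels is another name of MPM-1. All 6 libraries came from cells labelled as wild type, grown in DMEM with fetal bovine serum and L-glutamine, and no other agent was named. The dose of MPM-1 used for sequencing was not given in the sources used here. Nothing says whether libraries of a treatment came from separate cultures, so the p-values measure the spread between these libraries only.

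Chemokines are small secreted proteins that bind receptors on leukocytes and set the direction in which these cells move. CXCL1, CXCL2, CXCL3 and CXCL8 (interleukin-8) carry the glutamate-leucine-arginine motif before their paired cysteines and attract neutrophils through CXCR2, with CXCL8 also acting on CXCR1. CXCL16 is made as a membrane protein whose chemokine domain stands on a mucin-like stalk, is shed by the proteases ADAM10 and ADAM17 and binds CXCR6, while CCL20 binds CCR6 on lymphocytes and dendritic cells. In gut epithelium NF-kB drives transcription of CXCL1, CXCL2, CXCL3, CXCL8 and CCL20 after contact with bacteria or inflammatory cytokines, AP-1 and C/EBP factors act beside it on CXCL8, and the messages of these genes are short-lived because of AU-rich elements.

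Stretches upstream of 4 of the genes are shown because CXCL8 moved one way and CXCL1 and CXCL3 the other. They are from the RefSeq promoter table (GRCh38.p14), which matched 5 of the 6 genes and not CXCL16, and run 5′ to 3′ on the strand of each gene from position -150 to -61 counted from the RefSeq transcript start. Capitals mark the strings GGAATTTCC (an NF-kB site), TGACTCA (an AP-1 site), TTGCAAAT (a C/EBP site) and GGGCGGGGC (a GC box).
CXCL8 (chr4:73740419-73740508, plus strand): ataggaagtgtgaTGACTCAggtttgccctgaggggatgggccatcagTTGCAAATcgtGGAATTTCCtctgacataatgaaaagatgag
CXCL1 (chr4:73869243-73869332, plus strand): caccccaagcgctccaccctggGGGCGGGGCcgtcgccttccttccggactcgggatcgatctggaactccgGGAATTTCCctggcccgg
CXCL2 (chr4:74099256-74099345, minus strand): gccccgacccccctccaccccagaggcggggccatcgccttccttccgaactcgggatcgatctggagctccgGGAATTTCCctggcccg
CXCL3 (chr4:74038750-74038839, minus strand): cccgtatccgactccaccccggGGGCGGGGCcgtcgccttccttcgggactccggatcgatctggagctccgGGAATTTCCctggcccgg

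The stretches of CXCL1 and CXCL3 were 89% identical in a global alignment, those of CXCL2 and CXCL3 85.7% and those of CXCL1 and CXCL2 84.6%. The stretch of CXCL8 was 38.3% to 41.8% identical with these. The letters were chosen after these sequences had been read, and each string was searched on both strands of the whole 300-base entries, which reach 50 bases past the start. GGAATTTCC stood in all 4 of these promoters, at -91 to -83 in CXCL8, at -78 to -70 in CXCL1 and CXCL3 and at -77 to -69 in CXCL2, and in 0.461% of the 35116 promoters of the table. The same string with a further G in front of it, on the same strand, was found in CXCL1, CXCL2 and CXCL3 and in 0.145% of all promoters. Of the 5 promoters, TGACTCA stood only in that of CXCL8, at -137 to -131, and in 4.95% of all promoters. TTGCAAAT stood at -102 to -95 in CXCL8 and at -230 to -223 in CCL20, and in 0.883% of all. The GC box string stood at -128 to -120 in CXCL1 and CXCL3, and in 13.6% of all promoters. TATAAA lay at -31 to -26 in CXCL8 and at -29 to -24 in CCL20, and in 11.5% of all promoters. These are matches of letters and not measured binding. GENCODE 29 annotates starts of CXCL2, CXCL3 and CXCL8 that lie further upstream than the RefSeq starts, inside the stretches printed.

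The counts summed to between 31733667 and 40269820 per library, and no libraries of a treatment held the same counts. The SW480 label was compared with fixed marker lists. Of 10 markers of colorectal epithelium, 9 had a row, with a summed level of 8400 to 9780 CPM (counts divided by the TMM-scaled library size) in DMSO and 12300 to 13800 CPM after MPM-1. Of 10 leukocyte markers only CD14 had a row, at 8.64 to 9.84 CPM in DMSO and 2.04 to 4.91 CPM after MPM-1, while PTPRC, CD3D, CD3E, LYZ, ITGAM, NKG7 and CSF1R were among those with none. None of 4 endothelial markers and 2 of 5 fibroblast markers had a row, the latter with a sum of 4.79 to 5.47 CPM in DMSO and 2.00 to 2.89 CPM after MPM-1. In such bulk libraries fewer cells making a transcript and less transcript per cell cannot be told apart. A gene was called when edgeR's quasi-likelihood test gave an adjusted p-value under 0.01 and the log2 fold change was at least 1 in size. By this rule 725 of the 12982 genes were called higher and 1136 were called lower after MPM-1.

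CXCL8 rose about 22.2-fold after MPM-1, CXCL1 and CXCL3 fell to 0.341 and 0.149 of their level in DMSO, and CXCL2 and CXCL16 did not pass the test. Of the 5 chemokines measured, 1 was thus called higher (against 5.58% of all genes) and 2 were called lower (against 8.75% of all genes), with a median log2 fold change of -0.39 against -0.026 over all genes. That median is the value of CXCL2, whose 95% confidence interval ran from -1.87 to 1.09. All 6 fits that left out a library gave the same 3 calls.

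**Figure D1:**
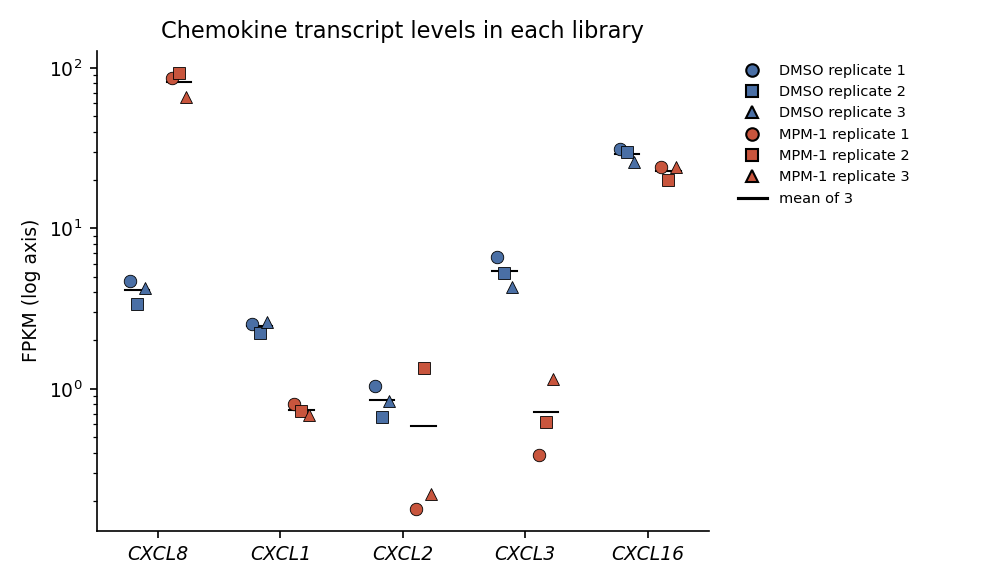
FPKM (log axis) of the 5 chemokines in each library, with DMSO in blue, MPM-1 in red, a symbol for each replicate number and a line at the mean of 3. CXCL8 lay between 66.1 and 93.4 FPKM after MPM-1 against at most 4.68 FPKM in DMSO, CXCL1 and CXCL3 lay lower in each MPM-1 library, and the highest CXCL2 value was that of MPM-1 replicate 2.

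CXCL8 (ENSG00000169429, chr4:73740506-73743716 on GRCh38, plus strand) had 264, 242 and 278 counts in DMSO replicates 1 to 3 and 4980, 5222 and 4128 counts in MPM-1 replicates 1 to 3. Per length this was 4.68, 3.37 and 4.23 FPKM (fragments scaled for transcript length and library size) against 86.5, 93.4 and 66.1 FPKM. All MPM-1 libraries stood far above all DMSO libraries, and the distance between treatments was many times the spread within either. The mean went from 6.86 ± 1.20 to 152 ± 25.4 CPM (SD, n = 3 each). The log2 fold change was 4.48 (SE 0.17, 95% confidence interval 4.10 to 4.85, Benjamini-Hochberg adjusted p = 2.36e-07 by edgeR). It was the 24th largest rise among the 12982 genes. With a library left out it stayed between 4.34 and 4.62.

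CXCL3 (ENSG00000163734, chr4:74036589-74038807, minus strand) fell the most of the chemokines. It had 237, 238 and 181 counts in DMSO and 14, 22 and 46 counts after MPM-1, or 6.66, 5.29 and 4.34 FPKM against 0.385, 0.618 and 1.15 FPKM. The highest MPM-1 library lay well under the lowest DMSO library, although the MPM-1 libraries differed from each other more in proportion than those of DMSO. The mean went from 5.75 ± 1.34 to 0.848 ± 0.470 CPM (SD, n = 3 each). The log2 fold change was -2.74 (SE 0.38, 95% confidence interval -3.60 to -1.89, adjusted p = 2.60e-04 by edgeR), the 101st largest fall of all genes. It ranged from -3.27 to -2.43 with a library left out.

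CXCL1 (ENSG00000163739, chr4:73869393-73871242, plus strand) fell in the same direction with the tightest libraries of the set. The counts were 92, 102 and 111 in DMSO and 30, 27 and 28 after MPM-1, and the FPKM were 2.53, 2.21 and 2.60 against 0.806, 0.722 and 0.686. The treatments did not overlap. The mean went from 2.65 ± 0.246 to 0.899 ± 0.0775 CPM (SD, n = 3 each), a log2 fold change of -1.55 (SE 0.27, 95% confidence interval -2.17 to -0.94, adjusted p = 0.00106 by edgeR). It ranged from -1.63 to -1.49 with a library left out. Among all genes, 33.3% had all 3 MPM-1 libraries below all 3 DMSO libraries in CPM and 31% had them above, so that a lack of overlap by itself was common in this experiment.

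CXCL2 (ENSG00000081041, chr4:74097035-74099293, minus strand) was the lowest of the 5 in DMSO and gave no call. Its counts were 42, 35 and 40 in DMSO, and 8, 55 and 10 in MPM-1 replicates 1, 2 and 3. MPM-1 replicate 2 was thus the highest library of all 6, while the other MPM-1 libraries were the lowest. The mean was 1.03 ± 0.233 CPM in DMSO and 0.783 ± 0.871 CPM after MPM-1 (SD, n = 3 each). The log2 fold change was -0.39 (SE 0.66), and its 95% confidence interval of -1.87 to 1.09 held both a fall of the size seen in CXCL1 and a rise (adjusted p = 0.634 by edgeR). Without MPM-1 replicate 2 the value was -1.83 (adjusted p = 0.0106 from edgeR), just short of a call, and without MPM-1 replicate 1 or 3 it was 0.02 or 0.01. CXCL1 had 27 counts and CXCL3 had 22 counts in that library, both below DMSO, so the high value was seen in CXCL2 and not in its closest relatives.

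CXCL1, CXCL2 and CXCL3 are near copies of each other, and the counting could have divided some reads between them. Of the 50-base words in the GENCODE 29 transcripts of CXCL2, 12.5% also occurred in CXCL1 or CXCL3. For CXCL3 and CXCL1 the shared part was 6.01% and 4.81%. For CXCL8, 0 of 2262 words occurred in a transcript of another gene. The values of the 3 relatives are uncertain for this reason, and these shares of words do not measure how many reads were affected. How reads with several matches were counted was not given in the sources used here.

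CXCL16 (ENSG00000161921, chr17:4733526-4739922, minus strand) was the most abundant of the chemokines in DMSO and changed little. It had 2233, 2711 and 2160 counts in DMSO and 1778, 1415 and 1939 counts after MPM-1. In CPM the treatments overlapped, with 54.2 to 67.7 CPM in DMSO and 46.0 to 58.4 CPM after MPM-1. The log2 fold change was -0.19 (SE 0.12, 95% confidence interval -0.45 to 0.07, adjusted p = 0.193 by edgeR), so a change of more than 1 in size lay outside the interval. In FPKM all MPM-1 libraries (20.0 to 24.2 FPKM) were below all DMSO libraries (25.8 to 31.3 FPKM), and limma on log2(FPKM + 0.1) gave -0.35 (adjusted p = 0.0272) where the median of all genes was -0.145. The gene overlaps MED11 on the other strand, and without strand in the counting their reads could not be told apart.

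**Figure D2:**
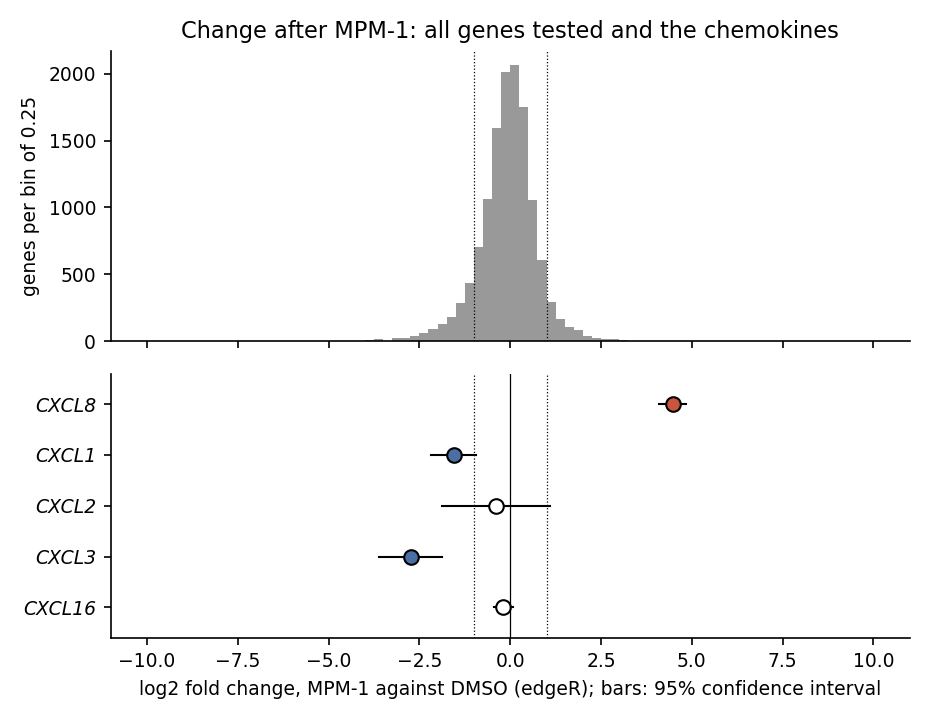
Top, the number of genes per bin of 0.25 of log2 fold change (MPM-1 against DMSO) over the 12982 genes tested. Bottom, the log2 fold change of each chemokine with its 95% confidence interval, filled red or blue when called higher or lower, with dotted lines at -1 and 1. CXCL8 at 4.48 lies far in the upper tail, CXCL3 at -2.74 and CXCL1 at -1.55 in the lower one.

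The order of the 5 chemokines per length was turned over by the treatment. In DMSO, CXCL16 was highest at a mean of 29 FPKM, followed by CXCL3 at 5.43, CXCL8 at 4.10, CXCL1 at 2.45 and CXCL2 at 0.847 FPKM. CXCL3 and CXCL8 overlapped between libraries in that order, and the other neighbours did not. After MPM-1, CXCL8 was highest at 82.0 FPKM, CXCL16 followed at 22.8 FPKM, and CXCL1, CXCL3 and CXCL2 lay at 0.738, 0.716 and 0.585 FPKM with libraries that overlapped. Of the summed FPKM of the 5 genes, CXCL8 made up 8.14% to 11.2% in the DMSO libraries and 71.6% to 80.5% in the MPM-1 libraries. CXCL16 made up 67.8% to 72.2% in DMSO and 17.2% to 26.2% after MPM-1.

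Within the neutrophil-attracting chemokines the balance moved by the same measure. The ratio of CXCL8 to CXCL3 in FPKM was 0.704, 0.637 and 0.976 in DMSO replicates 1 to 3 and 225, 151 and 57.7 in MPM-1 replicates 1 to 3. In DMSO there was thus more CXCL3 than CXCL8 per length in each library, and after MPM-1 there was more CXCL8 in each. The ratio of CXCL8 to CXCL1 was 1.53 to 1.85 in DMSO and 96.4 to 129 after MPM-1. Even in MPM-1 replicate 2, where CXCL2 was high, CXCL8 exceeded CXCL2 by a ratio of 69.0, against 4.53 to 5.07 in DMSO.

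CXCL8, CXCL1, CXCL3 and CXCL2 lie within 359 kb of each other on chromosome 4. Between the outermost of them GENCODE 29 places 9 protein-coding genes, all chemokines, of which the other 5 (CXCL5, CXCL6, PF4, PF4V1 and PPBP) had no row in the table. CXCL1 starts 129 kb from CXCL8, with CXCL6 and PF4V1 between them, and the rise of CXCL8 and the fall of CXCL1 are thus in genes of a single cluster. Within 1 Mb on either side, 8 further genes had a row, of which 2 were called higher, 1 was called lower and 5 were not called. Over all genes 5.58% were called higher and 8.75% lower. The calls were in AREG, BTC and COX18. AREG (amphiregulin, a ligand of the EGF receptor) went from 123 ± 11.6 to 546 ± 115 CPM (SD, n = 3 each, log2 fold change 2.14). BTC (betacellulin, another such ligand) had a log2 fold change of 1.95. COX18, which acts in the assembly of cytochrome c oxidase, had one of -1.01 and was not called with DESeq2 (-0.99) or without DMSO replicate 2 or MPM-1 replicate 1. EREG (epiregulin), between CXCL2 and AREG, had a log2 fold change of 0.83 and was not called. RASSF6, MTHFD2L and ANKRD17, also not called, had 0.75, 0.72 and 0.34. EREG and these genes had an adjusted p under 0.01 by edgeR but fell short of the fold threshold. PARM1, the other gene not called, had -0.25 (adjusted p = 0.101 by edgeR). These neighbours were looked up after the values of the chemokines were known.

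**Figure D3:**
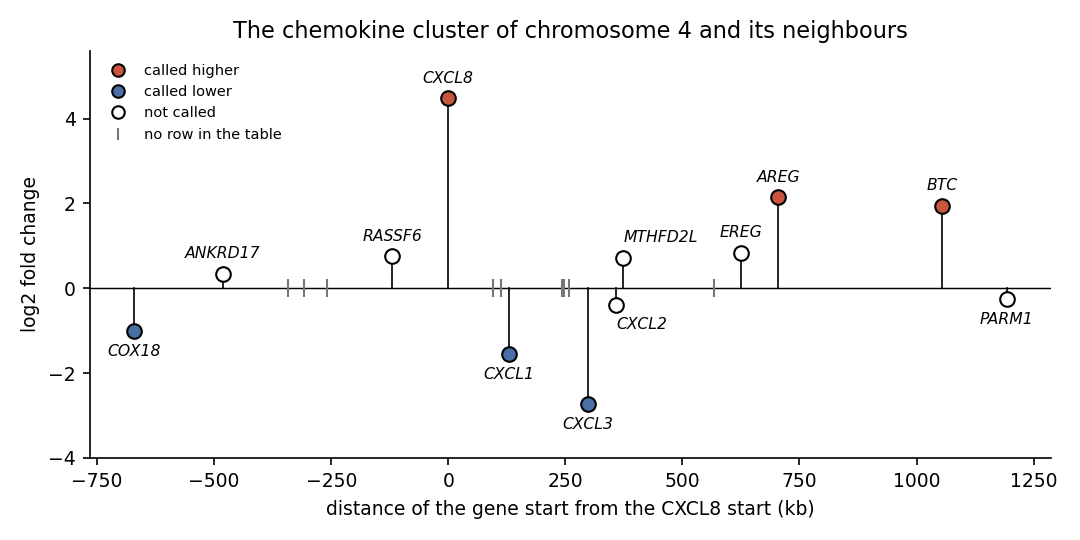
Log2 fold change (MPM-1 against DMSO) of the genes in the table around the chromosome 4 cluster, by the distance of their start from that of CXCL8 in kb. Red and blue mark genes called higher and lower, open circles genes not called, and grey ticks protein-coding genes without a row. CXCL8 at 4.48 stands beside CXCL1 at -1.55 and CXCL3 at -2.74.

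Little else of the chemokine system was measured in these cells. Of 40 other chemokines, 3 had a row, and edgeR called none of them (1 had an unadjusted p under 0.05, and DESeq2 called none). CCL26, an attractant of eosinophils, went from 5.08 ± 0.807 to 3.34 ± 0.911 CPM (SD, n = 3 each, log2 fold change -0.61, adjusted p = 0.0638 from edgeR). CX3CL1, the other chemokine made on a stalk, was at 9.69 ± 1.58 and 10.7 ± 1.59 CPM, and CCL5 at 0.991 ± 0.176 and 1.03 ± 0.238 CPM. Of 23 chemokine receptors, 3 had a row, and neither edgeR nor DESeq2 called any (0 had an unadjusted p under 0.05 from edgeR). These were CCR9, CCR10 and the decoy-like CCRL2, with log2 fold changes of 0.15, -0.19 and -0.34. CCRL2 had 20, 112 and 71 counts in MPM-1 replicates 1 to 3 and 82 to 122 counts in DMSO. CXCR1, CXCR2, CXCR6 and CCR6, the receptors of the chemokines followed here, had no row in the table, whose lowest total was 115 counts over the 6 libraries.

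Proteases that release or trim chemokines were read beside CXCL16. Of 15 such genes and their regulators 11 had a row, with a median log2 fold change of 0.15 against -0.026 over all genes. Over all genes 5.58% were called higher and 8.75% lower, and of these 11 genes 1 was called higher and none lower. This was MMP1 (interstitial collagenase), which went from 1.52 ± 0.286 to 78.9 ± 9.69 CPM (SD, n = 3 each), a log2 fold change of 5.70 (SE 0.16, adjusted p = 4.63e-08 by edgeR). ADAM17 and ADAM10, the sheddases of CXCL16, were not called, with log2 fold changes of 0.35 and -0.33. RHBDF1 and RHBDF2, cofactors of ADAM17, stood at 0.71 and -0.42 (adjusted p = 4.33e-04 and 0.00565 by edgeR), short of the fold threshold. DPP4, which clips the ends of many chemokines, stood at 0.05 and MMP13 and MMP14 at 0.92 and 0.15. The inhibitors TIMP1, TIMP2 and TIMP3 stood at 0.51, 0.12 and 0.13, with an adjusted p of 4.00e-04 by edgeR for TIMP1. At an adjusted p under 0.05 (edgeR) with no fold threshold, 5 of the 11 were higher and 2 lower. By that threshold 3596 of all 12982 genes were higher and 3740 lower.

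Of 29 genes of NF-kB signalling all had a row, and 4 were called higher and none lower, against 5.58% and 8.75% of all genes. DESeq2 called 5 higher and none lower. With an unadjusted p under 0.05 from edgeR, 13 had a positive and 4 a negative change. At an adjusted p under 0.05 (edgeR) with no fold threshold, 10 were higher and 4 lower, against 3596 and 3740 of all 12982 genes. The median was 0.18 against -0.026 over all genes. RELB, a subunit of the noncanonical arm, went from 15.6 ± 3.21 to 44.1 ± 6.56 CPM (SD, n = 3 each, log2 fold change 1.51), and NFKBIB, an inhibitor that holds NF-kB in the cytoplasm, had a log2 fold change of 1.47. BIRC3, an NF-kB target and ubiquitin ligase, had 1.17, and NFKBIZ, a nuclear cofactor, had 1.02. RELB and NFKBIB kept their call in all 6 fits that left out a library, and BIRC3 lost its call in 4 of them. The count of 4 fell to 2 without DMSO replicate 1, MPM-1 replicate 2 or MPM-1 replicate 3. In those fits neither BIRC3 nor NFKBIZ was called. The subunits RELA, NFKB2, REL and NFKB1 had log2 fold changes of 0.37, 0.86, 0.08 and -0.37 and were not called, nor were the feedback genes NFKBIA (0.40) and TNFAIP3 (1.45, adjusted p = 0.0225 from edgeR).

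**Figure D4:**
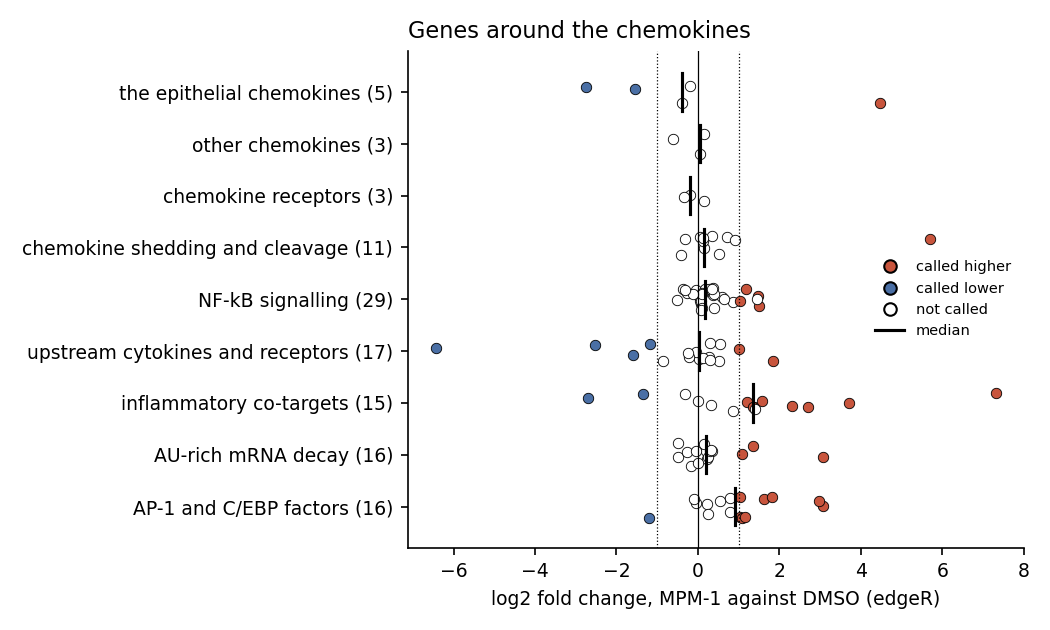
Log2 fold change (MPM-1 against DMSO) of each gene with a row in the table, by list, with the number of genes in brackets. Red and blue points were called higher and lower, open points were not called, the short bars are medians and dotted lines stand at -1 and 1. The co-targets range from LCN2 at 7.32 down to TNFAIP2 at -2.70, and NF-kB genes lie mostly between -1 and 1. The point furthest left is LTB, fitted from 0, 0 and 2 counts after MPM-1.

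Among the cytokines and receptors upstream of these chemokines 17 of 26 had a row, with 2 called higher, 4 lower and a median of 0.03. Over all genes 5.58% were called higher and 8.75% lower, with a median of -0.026. IL33, an alarmin kept in the nucleus, went from 374 ± 35.8 to 65.1 ± 7.30 CPM (SD, n = 3 each, log2 fold change -2.52). LTB (lymphotoxin beta) had 82, 83 and 79 counts in DMSO and 0, 0 and 2 counts after MPM-1, at least 22.4-fold lower when the MPM-1 libraries are set at 3 counts each, which leaves the median of the list as it is. Such limits cover counting error only. IL1R1, the signalling receptor of interleukin-1, fell by 1.60 on the log2 scale, and IL17RB was the other gene called lower (-1.18). IL1A (interleukin-1 alpha) rose by 1.84 on the log2 scale from 9, 22 and 32 counts to 34, 66 and 83 counts. F2RL1, a protease-activated receptor, stood at the threshold with 1.00. IL1A and F2RL1 each kept their call in only 2 of the 6 fits that left out a library, and neither was called without DMSO replicate 2, MPM-1 replicate 2 or MPM-1 replicate 3. TNF, IL1B, IL17A and TLR2, TLR4 and TLR5 had no row.

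Other genes that inflammatory signals are known to induce together with the chemokines moved mostly up. Of 21 such genes 15 had a row, with 8 called higher (against 5.58% of all genes) and 2 lower (against 8.75%). The median was 1.36 against -0.026 over all genes. The log2 fold change was above 0 in 11 of them and below 0 in 4, against 6280 and 6702 of all genes. In the chemokines it was above 0 in 1 and below 0 in 4. Among the latter, CXCL2 and CXCL16 had 95% confidence intervals that held 0. LCN2 (lipocalin 2, which withholds iron from bacteria) had the largest rise, with a log2 fold change of 7.32. CSF2, which encodes GM-CSF, went from 1.60 ± 0.490 to 20.8 ± 3.99 CPM (SD, n = 3 each, log2 fold change 3.70), and SDC4 (syndecan 4, a heparan sulfate carrier) had 2.70. In the other direction, TNFAIP2 had 184, 207 and 216 counts in DMSO and 19, 22 and 36 counts after MPM-1, a log2 fold change of -2.70 that is close to that of CXCL3. C3, the central complement component, had -1.35, and without DMSO replicate 3, MPM-1 replicate 2 or MPM-1 replicate 3 it was not called. SOD2 (-0.00), PTGS2 (-0.32) and IRF1 (0.33) gave no call.

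A list of AP-1 and C/EBP factors also held EGR1, which belongs to neither family. Of its 18 genes 16 had a row, with 8 called higher, 1 lower and a median of 0.91. Over all genes 5.58% were called higher and 8.75% lower. The strings TGACTCA and TTGCAAAT stand in the printed stretch of CXCL8, but binding there by the listed factors was not tested. ATF3 went from 5.67 ± 1.97 to 47.6 ± 6.38 CPM (SD, n = 3 each, log2 fold change 3.08), DDIT3 (CHOP) had a log2 fold change of 2.98 and JUNB of 1.82. CEBPA, a factor of differentiated epithelium, was the gene called lower (-1.19), and FOS (-0.04) gave no call. With scaling by library size alone, 4 of these genes were called higher in place of 8. A list of 16 genes for the decay of AU-rich messages also held the signalling genes DUSP1, MAPK14 and MAPKAPK2. All 16 had a row, and 3 were called higher and none lower, with a median of 0.20. DESeq2 likewise called 3 higher and none lower. With an unadjusted p under 0.05 from edgeR, 6 had a positive and 3 a negative change. At an adjusted p under 0.05 (edgeR) with no fold threshold, 6 were higher and 2 lower, against 3596 and 3740 of all 12982 genes. DUSP1, the phosphatase that turns off p38, had a log2 fold change of 3.07, ZFP36 (tristetraprolin, which marks AU-rich messages for decay) had 1.34 and ZFP36L1 had 1.09. ZFP36L1 was not called without MPM-1 replicate 3 (0.99), with library size alone (0.94) or in the limma settings (0.90 to 0.93), which leaves 2 genes called higher. ELAVL1, which stabilises such messages, stood at 0.01 and KHSRP at -0.49.

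**Figure D5:**
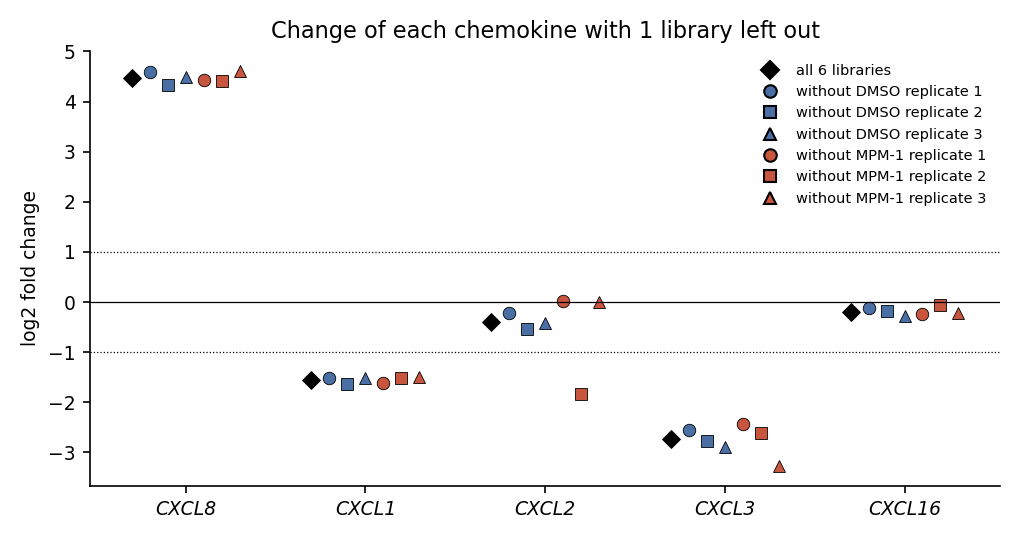
Log2 fold change (MPM-1 against DMSO) of each chemokine with all 6 libraries (black) and with 1 library left out (blue, a DMSO library; red, an MPM-1 library). CXCL8, CXCL1 and CXCL3 keep their place in each fit, while CXCL2 moves from -0.39 to -1.83 without MPM-1 replicate 2.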

How the data were processed

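RNA of SW480 cells exposed for 24 h to DMSO or to MPM-1 was sequenced (3 libraries each), and samples were grouped by their titles. The authors deposited whole-number counts per gene and library without normalization, and FPKM, which they scaled for transcript length and library size. They also deposited a log2 fold change and an adjusted p-value of their own comparison, which were not used. The submitters' processing notes name HISAT2, DESeq2 and the mouse build mm10, but the identifiers are human. Of 12982 genes, 12127 carry Ensembl identifiers, all in GENCODE 29 (GRCh38), and 855 are unplaced NewGene entries. The annotation and strand setting are not given in the sources used here. In 20 genes the symbol had become a date, and these were followed by identifier.

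Counts were tested with edgeR 4.0.16 (R 4.3.3) by the quasi-likelihood test with TMM scaling, no covariates and Benjamini-Hochberg adjustment over all genes. filterByExpr removed none. Standard errors and intervals were derived from the test's F statistic. Alternatives were DESeq2 1.42.0, limma 3.58.1 on log2(FPKM + pseudocount), other scalings, filters and thresholds, the replicate number as a block, and each library left out. A pseudocount of 1 on the FPKM scale shrinks the fold change of low genes, as in CXCL1 (-0.99, against -1.60 with a pseudocount of 0.1). The members and lists were chosen with earlier results of these data known. The genes named are the chemokines, the 3 largest rises and falls among called genes of each list, every gene of the receptor and shedding lists and, for each chemokine, the 3 genes most alike. Others were named after their values were seen. Libraries held 31733667 to 40269820 counts.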

Additional observations from a re-analysis of the deposited data

How the results depend on the processing

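Outside the fits that left out a library, the 5 chemokines kept their call and direction in 46 of 47 values. The exception was CXCL1 with limma on log2(FPKM + 1), at -0.99, where 1 chemokine was called lower in place of 2. Not all of these values were independent of the main fit. Those without a filter repeat it, because filterByExpr removed no gene, and those at the threshold of 0.05 use its fold changes. On this scale a pseudocount of 1 stands close to the level of CXCL1 itself. CXCL2 had no value with the filter at a mean of 50 counts or with limma over genes of at least 1 FPKM, because these filters removed it. With a library left out CXCL2 ranged from -1.83 to 0.02, and its sign turned without MPM-1 replicate 1 or 3. Samples with the same replicate number did not deviate together (correlations of 0.0214, 0.114 and -0.0737), so the numbers were not taken as pairs. With the replicate number as a block the values were 4.47 for CXCL8, -1.55 for CXCL1, -2.80 for CXCL3, -0.81 for CXCL2 and -0.19 for CXCL16, no chemokine changed its call, and 712 genes were called higher and 1120 lower against 725 and 1136. Without an adjustment for composition (library size alone) 26.8% of calls were higher against 39%, with the median of all genes at -0.176, and limma on log2(FPKM + 0.1) gave 28.9% (445 higher), or 27.1% without a filter. With a pseudocount of 1, limma called 351 higher and 716 lower, and an adjusted p-value under 0.05 with no fold threshold passed 3596 higher and 3740 lower. That threshold gave 5 higher and 2 lower for the proteases, 10 and 4 for NF-kB signalling, 5 higher for the upstream cytokines and 6 and 2 for AU-rich decay. NF-kB genes called higher numbered 2 in all 3 limma settings and 2 to 5 with a library left out. Upstream genes called higher numbered 0 with library size alone, with the filter at 50 counts and in the limma settings, and 0 to 2 with a library left out. For the proteases the latter range was 1 to 2 higher, and for the co-targets it was 1 to 2 lower, with 0 lower in limma at pseudocounts of 0.1 and 1 over genes of at least 1 FPKM, a filter that removed TNFAIP2 and C3, and 2 lower in limma at 0.1 without that filter. AP-1 and C/EBP genes called higher numbered 4 with library size alone and in the limma settings. Small values that changed sign were CX3CL1 (-0.01), CCL5 (-0.09), CCR9 (-0.00), DPP4 (-0.10), TIMP2 (-0.03) and TIMP3 (-0.02) with library size alone, CCR9 (-0.02), DPP4 (-0.11) and TIMP3 (-0.03) with limma at 0.1, with or without the filter, CCL5 (-0.10) with limma without a filter, and CCR9 (-0.00), DPP4 (-0.10) and TIMP3 (-0.02) with limma at 1. With a library left out CCL5 ranged from -0.12 to 0.18, CCR9 from -0.05 to 0.35 and CCRL2 from -0.94 to 0.10. The cause was not tested. Depth limits CXCL2 most, with 8 to 55 counts per library.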

Other observations

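For each chemokine the 3 genes with the most similar log2 CPM over the 6 libraries were looked for where the mean was 5 CPM or more. The 6 points share treatment and depth, and Pearson's r is given as a description. For CXCL8 these were USP32 (0.9998), ATP6V0E1 (0.9996) and EDF1 (0.9994), whose log2 fold changes of 0.71, 0.77 and 0.94 were far smaller than that of CXCL8 and gave no call. For CXCL1 they were ATP5F1B, POLD1 and ATP5F1D (0.9979 to 0.9990), for CXCL3 CROCC, DALRD3 and CRAMP1 (0.9955 to 0.9987), for CXCL16 GMCL1, TRAF7 and CLSTN1 (0.9903 to 0.9930), and for CXCL2 KIAA0040, PILRB and KIAA1217 (0.9706 to 0.9794). None of these 15 genes was called. CXCL1 and CXCL3 had an r of 0.92 with each other, and CXCL8 had -0.98 with CXCL1 and -0.96 with CXCL3.

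Markers of the epithelium itself also moved. CDX2, the intestinal transcription factor, went from 82.5 ± 3.51 to 17.9 ± 4.33 CPM (SD, n = 3 each, log2 fold change -2.20), and KRT20, a keratin of differentiated colonocytes, had a log2 fold change of -2.03. Both were called lower, 2 of the 9 with a row, against 8.75% of all genes. The other 7 were not called. EPCAM stood at -0.00, VIL1 at -0.88, CDH17 at -0.47, KRT8 at 0.42, CDH1 at 0.82 and KRT18 and KRT19 at 0.89. All of these but EPCAM had an adjusted p under 0.01 by edgeR and fell short of the fold threshold. CD14, the only leukocyte marker with a row, was called lower (-1.34), as was the fibroblast marker COL1A1 (-2.07). The part of these changes in the chemokine results was not tested.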
